A study of Mus musculus with 8 samples.

Results

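The galectins are the family of 9 mouse genes described here, Lgals1, Lgals2, Lgals3, Lgals4, Lgals6, Lgals7, Lgals8, Lgals9 and Lgals12. They were taken as the probes that carry these names in the array's own annotation, which gave 11 probes and 9 of the 34964 gene names on the array. The family was chosen by measured values, its differences between Cdx1-/- and Cdx1+/+ mTEC and between mTEC and SIEC in these samples, so the members' differences below are a description with no test of their own.

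RNA of 8 pooled samples was hybridised to 1-colour microarrays, 1 array a sample, from mice of a mixed C57BL/6 and 129 background. Medullary thymic epithelial cells (mTEC) came from Cdx1-/- mice on 3 arrays and from Cdx1+/+ mice on 3 arrays, and small intestine epithelial cells (SIEC) from Cdx1-/- mice on 1 array and from Cdx1+/+ mice on 1 array. Each mTEC sample pooled 4 to 6 thymi and was sorted for Epcam, UEA1 binding, high CD80 and high MHC class II, without CD45 or the dead-cell dye Fluorogold. Each SIEC sample pooled 3 mice and was sorted for Epcam without CD45 or Fluorogold. Age, sex and the structure of the Cdx1 allele are not given in the sources used here. Cdx1 encodes a caudal-type homeobox factor of the gut lining. Going by its title, the series compares ectopic expression, the making of other organs' proteins for display to developing T cells, between mTEC with and without Cdx1.

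Galectins are lectins that bind β-galactoside sugars on glycoproteins and glycolipids, and they leave the cell without a signal peptide. Prototype galectins (Lgals1, Lgals2, Lgals7) have a lone sugar-binding domain per chain, the chimera galectin (Lgals3) adds a long flexible tail, and tandem-repeat galectins (Lgals4, Lgals6, Lgals8, Lgals9, Lgals12) join a pair of such domains. Some are made by restricted tissues: galectin-2 and galectin-4 by the gut epithelium, galectin-7 by stratified epithelia such as epidermis, and galectin-12 by fat cells. Galectin-1, galectin-3 and galectin-9 are widely made and are known for their effects on T cells.

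Lgals4 and the mouse gene Lgals6 are near copies, and their probes read overlapping stretches of transcript. The Lgals4 probe that represents the gene lies on chromosome 7 (mm9, chr7:29626555-29626614, plus strand), and the Lgals6 probe has no position on mm9 in the files. An open reading frame runs through each of these probes. Both are shown because the Lgals6 values below depend on how far they differ. Capitals mark the bases that differ within the overlap, and both sequences come from the scanner files.

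Lgals4 probe: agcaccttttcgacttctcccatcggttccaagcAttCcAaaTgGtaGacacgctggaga
Lgals6 probe: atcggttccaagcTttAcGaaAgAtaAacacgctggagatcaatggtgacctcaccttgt

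The probes are 60 bases long, and the Lgals6 probe begins at base 22 of the Lgals4 probe. Within the 39 shared bases 33 match (84.6%), and the longest identical run has 13 bases. The 6 differences are A35T, C38A, A40G, T43A, G45A and G48A, with the Lgals4 base first and positions counted from 1 at the 5′ end of the Lgals4 probe. No other pair of probes of different galectins shares a run of more than 7 bases. Whether either probe also binds the other transcript was not tested.

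A window of the 250 bases before the transcript start was at hand for 6 of the 9 genes (RefSeq, GRCm38.p6). It was searched on both strands for TTTATNG, a spelling of the site that caudal-type factors bind, and for its core TTTAT, which TTTATNG contains. Of these 6 promoters, 1 held either motif, that of Lgals2 (chr15:78855530-78855779, minus strand), which is shown with the TTTAT matches of either strand in capitals.

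Lgals2 promoter: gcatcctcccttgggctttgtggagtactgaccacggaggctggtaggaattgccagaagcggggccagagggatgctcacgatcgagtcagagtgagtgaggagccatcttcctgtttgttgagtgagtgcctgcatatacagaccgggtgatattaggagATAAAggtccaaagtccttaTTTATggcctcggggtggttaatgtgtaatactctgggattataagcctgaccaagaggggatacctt

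The match TTTATGG begins 68 bases before the start, and the second TTTAT lies on the opposite strand, 88 bases before it. Among all 32851 promoter windows, 9.81% held TTTATNG and 37.3% held TTTAT. A match is only a run of letters, and the 5 other windows (Lgals3, Lgals4, Lgals7, Lgals8 and Lgals9) hold none in these bases.

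Levels are log2 intensities relative to the array's own 75th percentile, so a level of 0 is as bright as that percentile and a step of 1 is 2-fold. Levels are compared between arrays for 1 probe, not between genes. Between 58.6% and 59.2% of spots were well above background on Cdx1-/- mTEC arrays, 59.1% to 63.5% on Cdx1+/+ mTEC arrays, 44.6% on the Cdx1-/- SIEC array and 46.3% on the Cdx1+/+ SIEC array. The number of arrays limits the precision. The Cdx1 probe averaged 4.93 ± 0.11 in Cdx1-/- mTEC and 5.91 ± 0.04 in Cdx1+/+ mTEC (SD, n = 3 each), a fall of 0.99 on the log2 scale (limma, adjusted p = 0.00373), so its transcript was still read in Cdx1-/- cells. In SIEC the Cdx1 probe went against the labels, at 6.48 for the label Cdx1-/- and 4.87 for the label Cdx1+/+. Directions in SIEC are given by label throughout. All 10 mTEC markers, Aire and Fezf2 among them, were well above background on every mTEC array, and all 8 intestinal epithelial markers were so on both SIEC arrays. Of the 10 mTEC markers, 5 were also well above background on both SIEC arrays and 4 on neither.

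In Cdx1-/- mTEC the gut galectins were lower: Lgals4 was 2.91-fold, Lgals2 2.56-fold and Lgals6 5.56-fold lower than in Cdx1+/+ mTEC. With a normexp background correction the log2 difference of Lgals6 was −1.38, smaller in size than that of Lgals4 (−1.50). Lgals7, of stratified epithelium, was 1.51-fold lower, and Lgals12, of fat cells, was 1.44-fold higher. Lgals1 and Lgals3 had overlapping groups. Of the 9 members, all measured in mTEC, 5 passed an adjusted p of 0.05 in limma, 4 lower and 1 higher, where 12.9% of all 24338 genes tested passed, 6.61% lower and 6.28% higher. The 3 arrays of each genotype did not overlap for 7 members, 5 lower and 2 higher, against 38.0% of all genes (17.9% lower and 20.1% higher). The median log2 difference was −0.31 over the members and 0.0033 over all genes tested. Nothing is read from these shares, since the family was proposed with this contrast known.

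**Figure D1:**
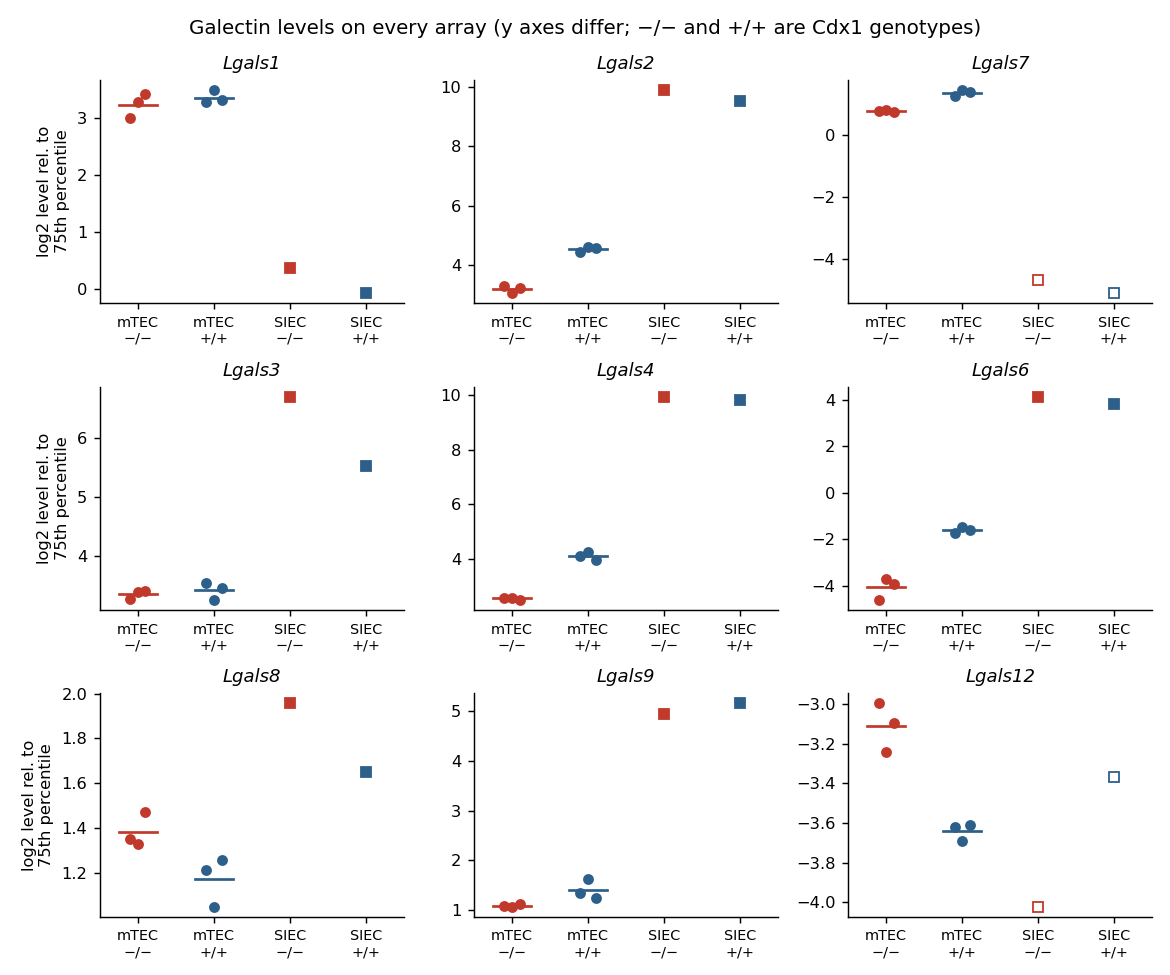
Level of each galectin on every array, as log2 intensity relative to the array's 75th percentile (y axis, its own range in each panel). Circles are mTEC arrays with their mean as a line, squares are the lone SIEC array of each genotype, and open squares are not well above background; the Lgals2, Lgals4 and Lgals6 panels show Cdx1-/- mTEC lowest, Cdx1+/+ mTEC above it and SIEC highest.

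Among the prototype galectins, Lgals2, which encodes a galectin of the digestive tract, was apart between genotypes. Its probe (chr15:78681315-78681374, mm9, minus strand) read 3.30, 3.07 and 3.23 in Cdx1-/- mTEC, against 4.45, 4.63 and 4.59 in Cdx1+/+ mTEC. Every Cdx1-/- array was below every Cdx1+/+ array, by at least 1.15, and the log2 difference was −1.35 ± 0.10 (SE, n = 3 each). Lgals7, whose product is a marker of keratinocytes, read 0.78, 0.81 and 0.77 in Cdx1-/- mTEC, against 1.28, 1.47 and 1.39 in Cdx1+/+ mTEC (chr7:29650625-29650684, plus strand). These groups were also apart, and the log2 difference was −0.59 ± 0.09 (SE, n = 3 each). Lgals1, a galectin of mesenchymal and immune cells known to act on T cell survival, read 2.99, 3.28 and 3.42 in Cdx1-/- mTEC, against 3.28, 3.49 and 3.31 in Cdx1+/+ mTEC (chr15:78760566-78760625, plus strand). The genotypes overlapped, with a log2 difference of −0.13 ± 0.13 (SE, n = 3 each), no larger than its error.

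The chimera galectin Lgals3, which macrophages and many epithelia make, read 3.27, 3.39 and 3.41 in Cdx1-/- mTEC, against 3.54, 3.25 and 3.45 in Cdx1+/+ mTEC (chr14:48005414-48005473, plus strand). The genotypes overlapped and the log2 difference of −0.06 ± 0.10 (SE, n = 3 each) was within its error.

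Of the tandem-repeat galectins, Lgals4 encodes a brush border protein that helps carry cargo to the apical surface of enterocytes. It read 2.61, 2.60 and 2.53 in Cdx1-/- mTEC, against 4.12, 4.28 and 3.96 in Cdx1+/+ mTEC. The genotypes were apart by at least 1.35, and the log2 difference was −1.54 ± 0.10 (SE, n = 3 each). The other 2 Lgals4 probes (chr7:29626658-29626717 and chr7:29626661-29626720, which largely overlap each other) gave −1.53 and −1.50, so the 3 probes did not disagree.

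Lgals6, the near copy of Lgals4, was well above background on all 8 arrays but dim in mTEC. It read −4.61, −3.69 and −3.91 in Cdx1-/- mTEC, against −1.72, −1.46 and −1.60 in Cdx1+/+ mTEC. The genotypes were apart by at least 1.97, the widest gap of any galectin, and the log2 difference was −2.48 ± 0.23 (SE, n = 3 each). As given above, it was −1.38 with normexp in place of the scanner's own background correction. Whether every pooled mouse of this mixed strain background carries Lgals6, whose probe has no mm9 position, was not tested.

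The excess of the Lgals6 difference over the Lgals4 difference varied with the background setting. With the processed signal, Lgals6 minus Lgals4 was −7.21, −6.30 and −6.44 in Cdx1-/- mTEC, against −5.84, −5.74 and −5.56 in Cdx1+/+ mTEC, and it was −5.80 in Cdx1-/- SIEC and −6.00 in Cdx1+/+ SIEC. With normexp, it was −5.29, −4.85 and −4.77 in Cdx1-/- mTEC, against −5.30, −5.18 and −4.90 in Cdx1+/+ mTEC. The genotypes were apart in the first case and overlapped in the second. The normexp setting also adds an offset of 50 to every intensity, which by itself shrinks the log2 differences of a dim probe. Its overlap therefore cannot decide whether Lgals6 was lowered more than Lgals4 in Cdx1-/- mTEC.

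**Figure D2:**
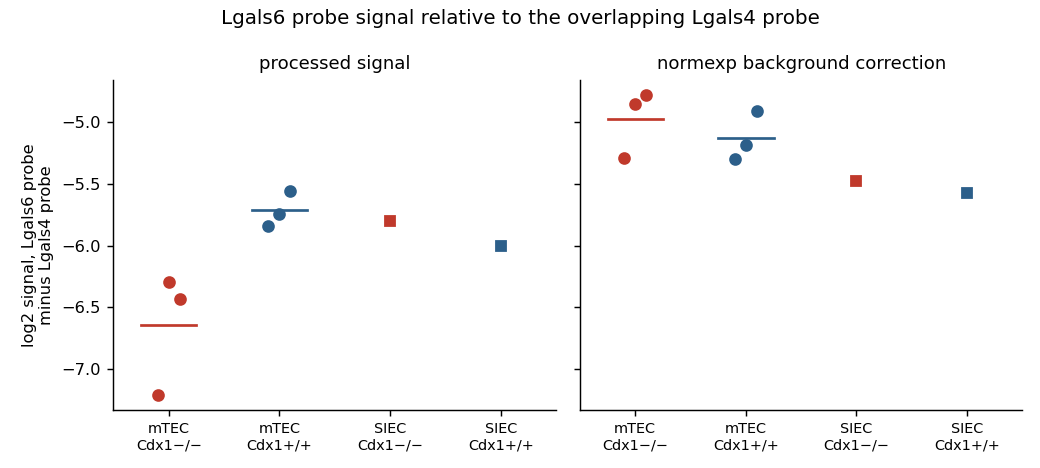
Signal of the Lgals6 probe minus that of the overlapping Lgals4 probe on each array (y axis, log2), with the scanner's processed signal on the left and normexp on the right. Circles are mTEC arrays with their mean as a line and squares are SIEC arrays; on the left the Cdx1-/- mTEC arrays lie at −7.21 to −6.30, below all others, and on the right they overlap the Cdx1+/+ mTEC arrays.

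Lgals8, known in human cells for marking damaged endosomes for autophagy, read 1.35, 1.33 and 1.47 in Cdx1-/- mTEC, against 1.21, 1.05 and 1.26 in Cdx1+/+ mTEC (chr13:12531700-12531759, minus strand). The groups were apart by 0.073 only, and the log2 difference of 0.21 ± 0.09 (SE, n = 3 each) did not pass. Lgals9, a ligand of the T cell receptor TIM-3, read 1.08, 1.06 and 1.11 in Cdx1-/- mTEC, against 1.33, 1.63 and 1.23 in Cdx1+/+ mTEC (chr11:78776922-78776981, minus strand). The Cdx1-/- arrays lay close together below a wider Cdx1+/+ spread, and the log2 difference of −0.31 ± 0.12 (SE, n = 3 each) did not pass. Lgals12, a galectin of fat droplets that restrains lipolysis, read −2.997, −3.24 and −3.09 in Cdx1-/- mTEC, against −3.62, −3.69 and −3.61 in Cdx1+/+ mTEC (chr19:7672371-7672430, minus strand). The groups were apart and the log2 difference was 0.53 ± 0.09 (SE, n = 3 each). That call was lost with normexp (0.25), without the filter on dim probes, and without Cdx1+/+ replicate 2 (0.503) or 3 (0.54) or Cdx1-/- replicate 3 (0.52).

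Some marker sums of other cell types also differed between the genotypes. In bulk RNA, fewer cells of a type and less RNA per cell cannot be told apart. The summed linear level of 8 intestinal epithelial markers was 51.1 to 58.3 in Cdx1-/- mTEC and 62.8 to 66.9 in Cdx1+/+ mTEC, with no overlap. All 8 were well above background on every mTEC array, and 6 of them fell, such as the villus actin bundler Vil1 by 1.07 and the sucrase-isomaltase gene Sis by 1.86 (limma, adjusted p = 0.00419 and 0.000871). The other 2 did not pass, Muc2 at −0.17 and Lyz1 at 0.33 (adjusted p = 0.334 and 0.114). Lyz1 was higher on every Cdx1-/- mTEC array than on any Cdx1+/+ mTEC array. It was also the brightest of the 8 in mTEC and so the largest term of the sum. Of the 4 cornified keratinocyte markers on the array, Krt10 and Ivl rose and 2 did not pass, with sums of 50.9 to 54.9 in Cdx1-/- mTEC and 33.1 to 37.9 in Cdx1+/+ mTEC, opposite in sign to Lgals7. The 3 adipocyte markers summed to 3.62 to 3.75 in Cdx1-/- mTEC and 4.99 to 5.38 in Cdx1+/+ mTEC, and Adipoq and Cidec fell, opposite in sign to Lgals12. The 6 macrophage and dendritic markers summed to 24.8 to 27.1 in Cdx1-/- mTEC and 22.7 to 24.4 in Cdx1+/+ mTEC, with Lyz2 higher, Mrc1 lower and 4 not passing. B cell markers summed to 1.24 to 1.48 in Cdx1-/- mTEC and 1.72 to 1.90 in Cdx1+/+ mTEC, with 0 of 3 passing in limma (3 at an unadjusted p under 0.05). The sums of thymocyte, mesenchymal, endothelial and mTEC markers overlapped. Within those lists the thymocyte marker Ptcra fell by 0.49 and the mTEC marker Cd86 rose by 0.35 (limma, adjusted p = 0.0204 and 0.0353). No other tested gene of those lists passed. The part of these cells in the galectin differences was not tested.

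Between tissues, mTEC held far less Lgals4, Lgals6 and Lgals2 than SIEC and more Lgals1 and Lgals7. Here mTEC stands for the 6 arrays of both genotypes, so the gaps of Lgals2, Lgals4 and Lgals6 are wider than for Cdx1+/+ mTEC alone. Their means were 4.56, 4.12 and −1.59 in Cdx1+/+ mTEC, against 9.70, 9.87 and 3.96 in SIEC. Of the 9 members 8 passed, 6 lower and 2 higher in mTEC, where 83.6% of all 25273 genes tested passed, 49.3% lower and 34.3% higher. The mTEC and SIEC arrays did not overlap for 8 members, and for 82.1% of all genes. The member median of mTEC minus SIEC was −2.73, against −0.43 over all genes. That all-gene median itself was −0.13 after quantile normalization, −0.55 with normexp and −0.90 in the authors' table, and 41.1% of passing genes were higher in mTEC, against 29.4% with normexp. Tissue and sorting gate cannot be told apart, since the gates differ. Both SIEC arrays lie on a slide with 1 mTEC array. With slide as a block 8 galectins passed, again 6 lower and 2 higher, where 74.4% of all genes passed. The differences were then −5.96 for Lgals2, −6.73 for Lgals4, −7.84 for Lgals6 and 5.80 for Lgals7.

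Lgals1 read 0.37 in Cdx1-/- SIEC and −0.06 in Cdx1+/+ SIEC, below all 6 mTEC arrays, and mTEC minus SIEC was 3.14 ± 0.17 (SE), an 8.83-fold excess in mTEC. Lgals2 read 9.89 in Cdx1-/- SIEC and 9.50 in Cdx1+/+ SIEC, and was 56.5-fold lower in mTEC (−5.82 ± 0.34, SE). Lgals7 was not well above background on either SIEC array, and mTEC held at least 26.6-fold more, from a mean that all 6 mTEC arrays measured. That bound holds for the scanner's processed signal only, since with normexp the log2 difference was 3.09, which is smaller than the bound. Of the prototype galectins, Lgals1 and Lgals7 were thus higher and Lgals2 lower in mTEC.

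Lgals3 read 6.70 in Cdx1-/- SIEC and 5.52 in Cdx1+/+ SIEC, and mTEC minus SIEC was −2.73 ± 0.25 (SE), 6.61-fold lower in mTEC. It was −1.81 after quantile normalization, −2.11 without the Cdx1-/- SIEC array and −3.34 without the Cdx1+/+ SIEC array. Lgals4 read 9.92 in Cdx1-/- SIEC and 9.81 in Cdx1+/+ SIEC, and was 91.6-fold lower in mTEC (−6.52 ± 0.32, SE), with −6.12 and −6.08 at its other probes. Lgals6 read 4.13 in Cdx1-/- SIEC and 3.80 in Cdx1+/+ SIEC, and mTEC minus SIEC was −6.80 ± 0.56 (SE). For the gut galectins Lgals2, Lgals4 and Lgals6 the order of levels was therefore Cdx1-/- mTEC, Cdx1+/+ mTEC and then SIEC, each step wider than the spread between replicate arrays. Over the alternatives run, mTEC minus SIEC lay between −6.69 and −4.64 for Lgals2, −7.35 and −5.35 for Lgals4, and −8.19 and −5.40 for Lgals6.

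Lgals9 read 4.94 in Cdx1-/- SIEC and 5.16 in Cdx1+/+ SIEC, and was 14.0-fold lower in mTEC (−3.81 ± 0.13, SE), with −3.08 after quantile normalization. Lgals8 read 1.96 in Cdx1-/- SIEC and 1.65 in Cdx1+/+ SIEC, and mTEC minus SIEC was −0.53 ± 0.11 (SE). That is −0.099 relative to the median of all genes, and it no longer passed after quantile normalization (−0.094). Lgals12 was not well above background on either SIEC array, and no direction is given for it. Its fitted mTEC minus SIEC was 0.32 and did not pass, while it passed as lower in mTEC with normexp (−0.54, limma adjusted p = 0.00382) and as higher without the Cdx1+/+ SIEC array (0.91, adjusted p = 0.000658).

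**Figure D3:**
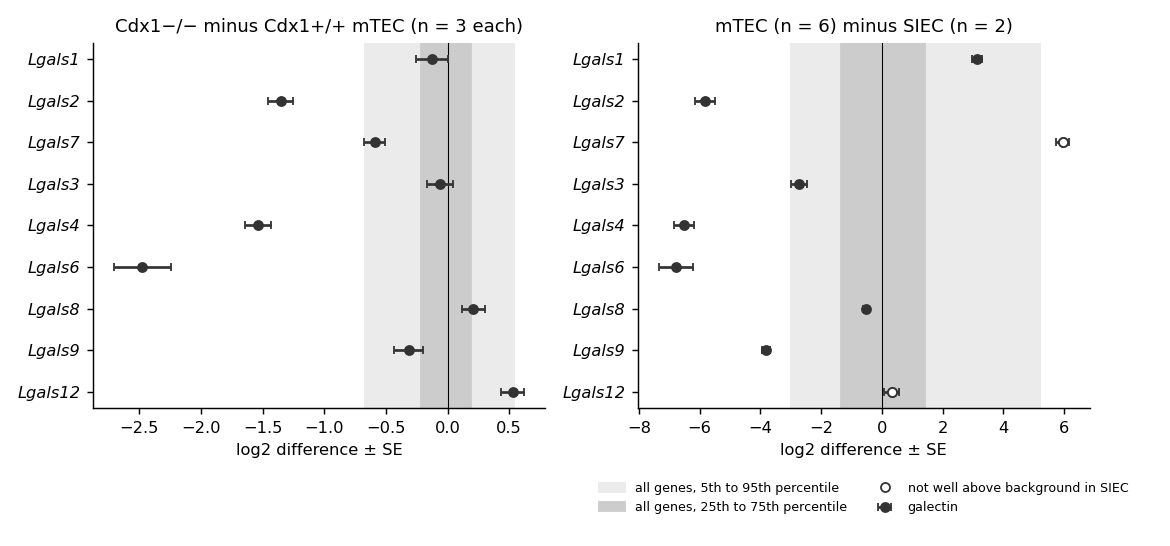
Log2 difference of each galectin with its standard error, Cdx1-/- minus Cdx1+/+ mTEC on the left (n = 3 each) and mTEC (n = 6) minus SIEC (n = 2) on the right. Grey bands hold the middle of all genes tested, and open points were not well above background in SIEC; Lgals2, Lgals4 and Lgals6 lie left of both bands in both panels, at −1.35, −1.54 and −2.48 on the left.

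Within the SIEC pair, which has 1 array per genotype and so no replicate check, 1 galectin differed by 2-fold or more. Of 7 members well above background, 6 were higher and 1 lower on the array labelled Cdx1-/-, with a median log2 difference of 0.32, against −0.04 over all genes. Lgals3 alone reached 2-fold, where 9.26% of 19132 genes did (5.71% higher on that array), with 2.26-fold more on the array labelled Cdx1-/-. The Lgals3 value was 0.96 on the log2 scale in the authors' deposited table, under 2-fold. Lgals1, Lgals2, Lgals6, Lgals8 and Lgals4 differed by 0.43, 0.39, 0.32, 0.30 and 0.12, and Lgals9 by −0.21. On these arrays the intestinal marker sum was 2622 (Cdx1-/-) and 1733 (Cdx1+/+), the thymocyte marker sum 22.4 and 8.04, and the macrophage and dendritic sum 4.06 and 2.64. Their part in the Lgals3 value was not tested.

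Genes that resembled each galectin most over the 8 arrays were ranked by the root mean square distance between profiles, each centred on its own mean, among 16750 named genes. The nearest to Lgals4 were the fatty acid-binding protein gene Fabp1 (distance 0.183), Guca2b (0.251), which encodes uroguanylin, and Vil1 (0.251). The nearest to Lgals2 were Eps8l3 (0.176), Ugt2b34 (0.186) and the membrane mucin gene Muc3 (0.231). Lgals6 had Lgals4 as its nearest (0.497), then Clca3b (0.507) and Fabp1 (0.52), so its distances were larger than those of its near copy. For Lgals7 they were Megf6 (0.0668), Umodl1 (0.073) and Ak8 (0.0965). For Lgals1 they were Lrtm2, Lst1 and Nxpe5 (0.0669 to 0.0868), for Lgals3 Ephx2, Prr15 and Plin3 (0.118 to 0.148), and for Lgals8 Hsp90aa1, Stambp and Parp10 (0.0588 to 0.0658). Lgals9 had Mcrip2 and Baiap2l1 (0.106 and 0.107), and Lgals12 had Slc25a17, Tmem107 and Ccpg1os (0.0868 to 0.110). These are descriptions over arrays that share tissue and genotype. For Lgals7 and Lgals12 the distances rest in part on SIEC values that were not well above background.

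Genes that build, bind or work with galectin ligands were examined in the mTEC contrast. Of 70 listed genes 67 were tested, and 10 passed (14.9%), 5 higher and 5 lower in Cdx1-/- mTEC, against 12.9% of all genes, a share near the background. The largest list, enzymes that build the sugars galectins bind, had 4 of 32 genes that rose, 4 that fell and 24 that did not pass, with a median of 0.06. Its passing share was 25%, against 12.9% of all genes. Nothing is read from that share, since the lists were chosen with earlier results of these data known. B3gnt8, which extends the poly-N-acetyllactosamine chains that galectins favour, read −2.36, −2.83 and −2.75 in Cdx1-/- mTEC, against −3.64, −3.62 and −3.53 in Cdx1+/+ mTEC. It rose by 0.95 (limma, adjusted p = 0.0106), with the groups apart, and passed under all 14 alternatives run for it. With normexp it rose by 0.51 and passed narrowly (limma, adjusted p = 0.0494). B4galt4, a galactosyltransferase, read −1.24, −1.44 and −1.40 in Cdx1-/- mTEC, against −0.89, −0.74 and −0.80 in Cdx1+/+ mTEC. It fell by 0.56 (adjusted p = 0.0154) and passed under 13 of 14 alternatives, losing the call without Cdx1+/+ replicate 3 (−0.55).

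St3gal4, a sialyltransferase that caps galactose, rose by 0.91 (limma, adjusted p = 0.0258) but passed under 8 of 14 alternatives, with 0.36 under normexp. C1galt1, which makes the core O-glycan galactose linkage, rose by 0.56 (adjusted p = 0.0361) and passed under 6 of 14. B3gnt4, chosen after its values were seen because it lies farthest out, was well above background on 0 of 3 Cdx1-/- mTEC arrays and 2 of 3 Cdx1+/+ mTEC arrays, and was at least 1.12-fold lower in Cdx1-/- mTEC. It passed the filter on dim probes only through Cdx1+/+ mTEC and is 1 of the 4 glycan-building genes counted as lower. With the strict filter, which asks for signal on every array, 8 of 65 tested companion genes were higher and 4 lower, where 16.1% of all genes passed.

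Of the 3 galectin-related genes, the lens galectin-related gene Grifin fell by 0.39 (limma, adjusted p = 0.0285), passing under 4 of 14 alternatives, and Lgalsl and Lgals3bp did not pass. Lgals3bp, which encodes a secreted glycoprotein that binds galectin-3, had a log2 difference of −0.34 (adjusted p = 0.121), and Lgalsl 0.42 (adjusted p = 0.0562). Among 24 tested receptors and ligands, Cd47, a surface protein that restrains phagocytosis, rose by 0.34 (adjusted p = 0.0441), passing under 2 of 14 alternatives, and the other 23 did not pass. Of the 8 intracellular partners 0 passed in limma, with 3 at an unadjusted p under 0.05. The list medians were −0.34 for galectin-related genes, 0.05 for receptors and ligands and −0.05 for intracellular partners.

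**Figure D4:**
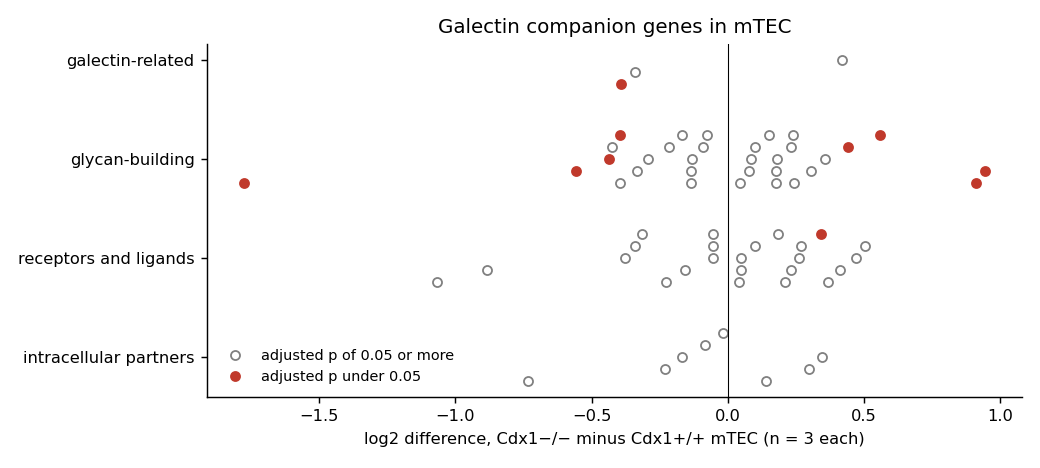
Log2 difference of each tested gene of the 4 companion lists, Cdx1-/- minus Cdx1+/+ mTEC (x axis, n = 3 each). Filled points have an adjusted p under 0.05 in limma; 5 lie above 0 and 5 below, and the point farthest left is B3gnt4, which is a fitted value for a gene not measured above background in Cdx1-/- mTEC.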

How the data were processed

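The deposited scanner files hold linear, background-subtracted spot intensity. Per the submitters' processing notes it came from Agilent Feature Extraction, and the file headers give version 10.7.3.1. The authors' deposited table of normalized intensity is that signal scaled by a constant for each array. Here 59305 non-control spots were put on the log2 scale less the array's 75th percentile, flagged outlier spots were dropped, and spots of a probe were averaged (55669 of 55681 probes used). Probe names were updated through RefSeq accessions for 27509 probes, and probe positions are on mm9. A gene was represented by the brightest of its probes that exceeded background clearly on 2 or more arrays of some group (on the lone array of a SIEC group).

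limma 3.58.1 (R 4.3.3) was fitted over all genes, with Benjamini-Hochberg adjustment and a threshold of 0.05, 2-sided. The mTEC fit used 6 arrays and the tissue fit all 8 with genotype as an additive term. The fits were tested on simulated data, and data were handled with the data.table package (version 1.17.8). Figures used pandas 2.3.3 and matplotlib 3.10.9. The design text calls the replicates independent, and p-values measure the spread between pooled samples. Where a probe was on no array of a group well above background, its fold is "at least" the bright group's mean over the dim group's, with each dim array set to the higher of the probe's value and the lowest signal well above background.

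Members, companion lists and markers were chosen with earlier results of these data known. Named are all members, Cdx1, up to 4 passing genes of smallest p per list, and the 3 nearest profiles of each member, of which 1 is not reported here. Slide 1 held 5 arrays and slide 2 held 3, Cdx1-/- mTEC replicate 1 among them. Replicate numbers come from the titles. Same-numbered mTEC samples' deviations from their group means correlated by 0.322, 0.147 and 0.148, and those of other pairs by −0.222 to 0.056. Deviations within groups of 3 depend on each other, so these values do not settle whether the numbers pair the samples. The main fit was unpaired. Alternatives were quantile normalization, normexp (offset 50), the authors' table, other filters on dim probes, slide or replicate as a block, slide 1 alone, and leaving out each array.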

Additional observations from a re-analysis of the deposited data

Results flagged for a closer look

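Lgals2, Lgals4 and Lgals6 stood out because they were higher by label in Cdx1-/- SIEC than in Cdx1+/+ SIEC, while every Cdx1-/- mTEC array was below every Cdx1+/+ mTEC array. Lgals2 was higher by 0.39 on the Cdx1-/- SIEC array, against a log2 difference of −1.35 in mTEC. Lgals6 was higher by 0.32 on the Cdx1-/- SIEC array, against −2.48 in mTEC. Lgals4 was higher by 0.12 on the Cdx1-/- SIEC array, against −1.54 in mTEC, but its SIEC difference was −0.16 once arrays were quantile normalized and −0.099 in the authors' deposited table. That table scales each array by a constant, so it lowered the SIEC differences of Lgals2 and Lgals6 by as much, without reversing them. The difference between the tissues was not tested, since SIEC has 1 array per genotype, and the Cdx1 probe itself was higher by 1.61 on the array labelled Cdx1-/-.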

How the results depend on the processing

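The galectin count in mTEC was 4 or 5 under every alternative run, with 4 or 5 on leaving out each array, and Lgals2, Lgals4, Lgals6 and Lgals7 passed under all of them. Lgals12 passed under 9 of 14. With the replicate block the same count of 5 galectins passed, and 14 companion genes in place of 10, where 3473 of all genes (14.3%) passed. The companion count was 5 with normexp, 2 without the filter on dim probes, 2 with slide as a block, 3 within slide 1, and 1 to 5 on leaving out each array, lowest without Cdx1+/+ replicate 3. Over all genes 3137 passed in mTEC, against 1974 with normexp, 1322 without the filter, 1779 with slide as a block, 1845 within slide 1 and 1245 to 1845 on leaving out each array. Between tissues 8 or 9 galectins passed on leaving out each array, and the strict filter left 7 to test. The Lgals12 tissue difference reversed, with −0.14 after quantile normalization, −0.54 with normexp and −0.16 in the authors' table, and ran between −0.27 and 0.91 on leaving out each array, lowest without the Cdx1-/- SIEC array. The Lgals7 tissue difference was 3.09 with normexp. Lgals3 in mTEC ran between −0.14 and 0.0030 on leaving out each array. In the SIEC pair 0 galectins reached 2-fold in the authors' table. Why these values moved was not tested. Signal over background limits Lgals6 and Lgals12 in mTEC and Lgals7 and Lgals12 in SIEC.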

Other observations

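Genes beside the galectins were set next to them, chosen by position after the data were seen. The Lgals4 and Lgals7 probes lie 23.9 kb apart on chromosome 7. Of their neighbours, 3 were tested in Cdx1-/- against Cdx1+/+ mTEC and did not pass, and Capn12 was not measured above background there. Ech1 had a log2 difference of 0.16, Hnrnpl −0.10 and Actn4 0.01 (limma, adjusted p = 0.284, 0.582 and 0.938). The Lgals2 and Lgals1 probes lie 79.2 kb apart on chromosome 15, and between them Gga1 had −0.09, Sh3bp1 −0.38 and Pdxp −0.30 (adjusted p = 0.503, 0.125 and 0.062). On the other side of Lgals2, Cdc42ep1 had −0.17 and Card10 −0.16 (limma, adjusted p = 0.417 and 0.310). Beyond Lgals1, Nol12 had 0.28 and Triobp −0.24 (adjusted p = 0.203 and 0.251). The genotypes were apart, lower in Cdx1-/- mTEC, for Sh3bp1, Pdxp and Card10, and overlapped for the other neighbours named here on chromosome 15. Lgals2, at −1.35, had a larger difference than any of these neighbours.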
